A study of Mus musculus with 10 samples.

Results

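The vascular endothelial growth factor (VEGF) family was followed as 10 named genes, 5 ligands (Vegfa, Vegfb, Vegfc, Vegfd and Pgf), 3 receptors (Flt1, Kdr and Flt4) and 2 neuropilins (Nrp1 and Nrp2). They were chosen by name and not by their values. All 10 stood among the 49585 rows of the gene table, Vegfd under that symbol, and all 10 were among the 12906 genes that passed the filter on low counts. RNA came from the left ventricle of male ICR mice, an outbred stock, and hearts were taken 4 weeks after myocardial infarction. Infarcted mice given 4FM3 gave 5 libraries and infarcted mice given phosphate-buffered saline (PBS) gave 5. The labels do not spell out what 4FM3 stands for, and the title of the series names direct reprogramming with adeno-associated virus. They also carry a time of 8 weeks whose starting point is not given, and they name neither uninjured hearts nor a group with an empty vector. Atria, valves and right ventricle had been removed, scar and surviving muscle were not separated, and the labels do not say whether every library is its own mouse. The p-values then measure only how these libraries vary, which may be technical.

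VEGF ligands are secreted dimers that act on receptor tyrosine kinases, mainly of endothelial cells. VEGF-A, the main driver of blood vessel growth, binds the receptors encoded by Flt1 and Kdr, with Kdr (VEGFR2) giving most of the mitogenic signal and Flt1 (VEGFR1) also acting as a trap for ligand. VEGF-B and placental growth factor (Pgf) bind Flt1, and VEGF-C and VEGF-D bind Flt4 (VEGFR3), the receptor best known for lymphatic vessel growth. Neuropilins are co-receptors that VEGF shares with class 3 semaphorins. In the heart, muscle cells are a known source of VEGF-A and VEGF-B, and capillary endothelium carries Kdr and Flt1.

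In ventricles of the 4FM3 group the ligands Vegfa and Vegfb and the receptors Kdr and Flt1 were higher than in PBS ventricles, and the ligands Vegfd and Vegfc and their receptor Flt4 were lower. Pgf, Nrp1 and Nrp2 did not pass the test. So 7 of the 10 genes passed the edgeR quasi-likelihood test, 4 higher and 3 lower, where 43.0% of all genes tested passed (20.9% higher and 22.1% lower). For 4 of the 10, Vegfa, Vegfb, Kdr and Vegfd, the 5 values of each group lay wholly apart, as they did for 27.5% of all genes tested (14.1% higher and 13.4% lower in 4FM3). The median log2 fold change of the 10 genes was 0.22, beside -0.03 over all genes tested. Levels are given as CPM, the read count scaled to a common library size. The counts behind the values ran from 25 reads for Pgf to 2694 for Vegfa in a library.

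**Figure D1:**
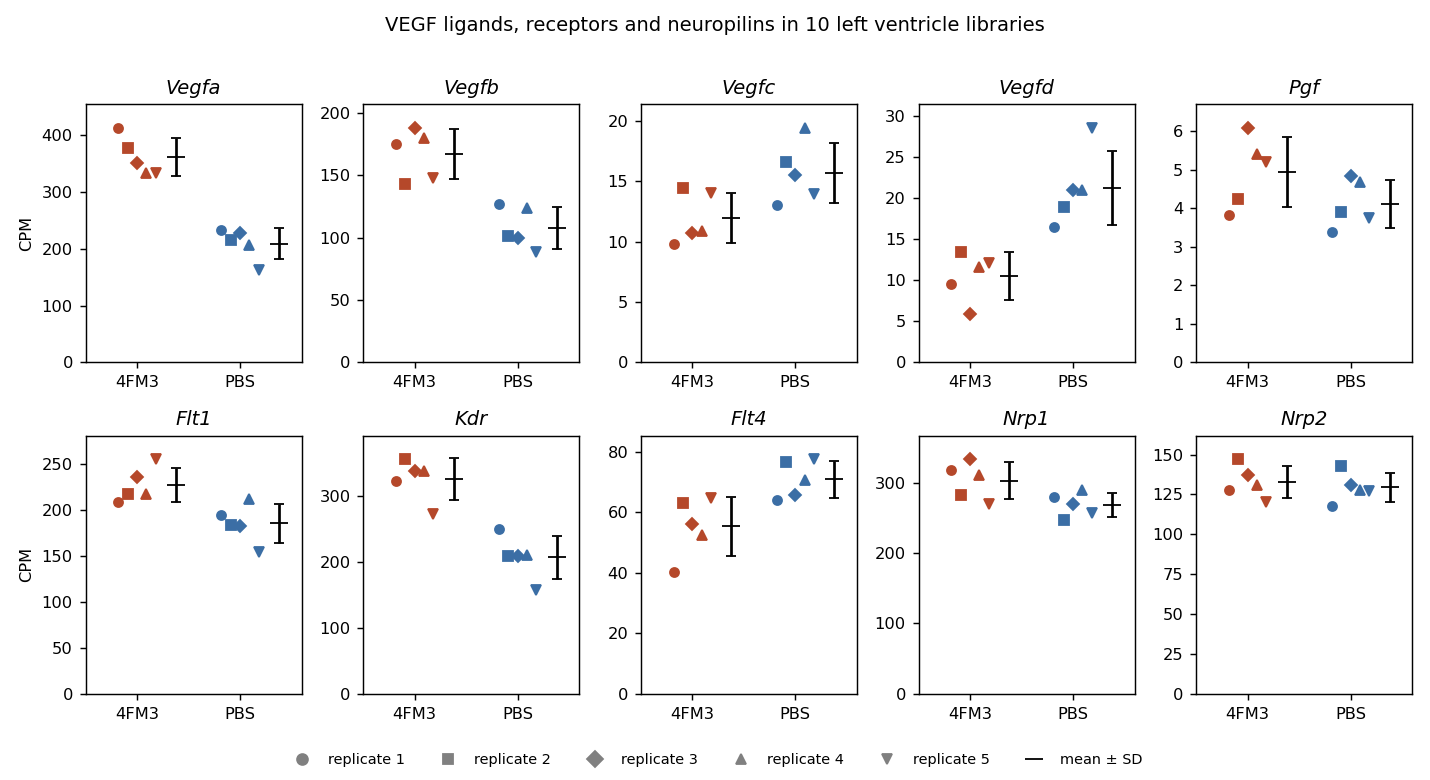
Expression of the 10 genes in CPM (y axes from 0) in the 5 4FM3 and 5 PBS libraries, 1 symbol per replicate number, with mean and SD. Vegfa, Vegfb and Kdr are higher in every 4FM3 library than in any PBS library, Vegfd is lower in every 4FM3 library, and the groups of the other 6 genes overlap.

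The deposited table gives no promoter measurement, so promoter sequence is shown only to set the 4 genes whose groups lay apart beside each other. Each is the 250 bases before the RefSeq start on GRCm38.p6, and all 10 genes had such a window. Capitals mark, on either strand, GGGCGG (the GC box bound by Sp1), ACGTG and GCGTG (cores of the hypoxia response element) and AAGGTCA (a site of estrogen-related receptors). Neighbouring matches run together in capitals where they touch. Of all 32851 windows of this length, GGGCGG was in 32.7%, GCGTG in 28.2%, ACGTG in 16.6% and AAGGTCA in 4.08%. Vegfa is shown at chr17:46032378-46032627, minus strand, Vegfb at chr19:6987652-6987901, minus strand, Kdr at chr5:75978456-75978705, minus strand and Vegfd at chrX:164373272-164373521, plus strand. For Vegfa the table has 2 starts, and the window of the start farther upstream is printed.
Vegfa: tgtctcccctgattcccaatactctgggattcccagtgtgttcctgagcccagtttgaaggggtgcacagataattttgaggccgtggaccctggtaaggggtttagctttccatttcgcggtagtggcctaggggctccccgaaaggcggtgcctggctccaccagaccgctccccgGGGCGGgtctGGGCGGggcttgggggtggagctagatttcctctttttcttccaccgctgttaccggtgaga
Vegfb: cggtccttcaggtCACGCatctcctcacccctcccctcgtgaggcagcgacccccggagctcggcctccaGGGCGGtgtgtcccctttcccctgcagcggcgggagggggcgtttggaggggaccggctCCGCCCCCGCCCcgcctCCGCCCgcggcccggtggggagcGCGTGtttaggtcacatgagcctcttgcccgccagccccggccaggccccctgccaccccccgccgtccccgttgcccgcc
Kdr: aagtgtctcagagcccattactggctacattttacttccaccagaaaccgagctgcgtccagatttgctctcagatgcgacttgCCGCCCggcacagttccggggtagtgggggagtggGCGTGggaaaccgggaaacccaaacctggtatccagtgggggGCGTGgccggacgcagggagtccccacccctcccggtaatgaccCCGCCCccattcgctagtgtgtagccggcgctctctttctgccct
Vegfd: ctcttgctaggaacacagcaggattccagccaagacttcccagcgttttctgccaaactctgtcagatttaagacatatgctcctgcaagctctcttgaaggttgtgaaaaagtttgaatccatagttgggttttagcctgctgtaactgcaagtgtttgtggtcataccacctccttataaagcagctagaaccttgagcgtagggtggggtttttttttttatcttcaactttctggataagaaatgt
The Vegfa window holds 2 matches of GGGCGG, the Vegfb window 4 and the Kdr window 2. GCGTG matched 2 times in the Vegfb window and 2 times in the Kdr window. The window of the other Vegfa start, at chr17:46025164-46025413, minus strand, lies inside the Vegfa gene (46016993 to 46032369). That window holds 1 match of ACGTG, 1 match of GCGTG and 1 match of GGGCGG. None of these motifs matched in the Vegfd window, while the windows of the other 2 genes that were lower in 4FM3 hold GGGCGG, Vegfc with 2 matches and Flt4 with 3. Of the genes that did not pass, Nrp2 has 5 matches of GGGCGG and 2 of GCGTG, and Nrp1 has 1 of each. Pgf, which did not pass either, has 2 windows, 1 with 2 matches of GGGCGG and 1 of GCGTG and the other with none. Flt1, which was higher in 4FM3, has 3 matches of GGGCGG and 1 of GCGTG. Over the windows of the 10 genes AAGGTCA matched only for Nrp1, with 1 match. The share of G and C was 42.4% in the Vegfd window, with 16.9% of all windows lower. It was 59.2% for the printed Vegfa window, 61.6% for Kdr, 68.4% for Flt4, 70.4% for Flt1, 71.6% for Vegfc and 76.4% for Vegfb. A match of letters is not a bound site, and no match says nothing of the factor.

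Vegfa, the main angiogenic ligand (ENSMUSG00000023951, GRCm38 chromosome 17, 46016993 to 46032369), had the smallest p-value of the 10. It had 413, 378, 351, 334 and 333 CPM in 4FM3 replicates 1 to 5, against 234, 215, 228, 207 and 163 CPM in PBS replicates 1 to 5. The lowest 4FM3 library stood well above the highest PBS library. The fitted level was 1.73-fold higher in 4FM3 (log2 fold change 0.79, SE 0.10, 95% interval 0.57 to 1.01, adjusted p = 0.000271). Among all genes tested this fold change lay at the 96.3 percentile. Reads of the short and long splice forms of VEGF-A, which differ in how they bind matrix, cannot be told apart in a count per gene.

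Vegfb, a ligand of Flt1 tied in the heart to muscle metabolism and coronary growth (chromosome 19, 6982473 to 6987651), moved the same way. It had 175, 143, 188, 180 and 148 CPM in 4FM3, against 127, 101, 100, 124 and 88.2 CPM in PBS. The groups did not overlap, and 4FM3 replicates 2 and 5 were the lowest of their group. Vegfb was 1.54-fold higher (log2 fold change 0.63, SE 0.111, 95% interval 0.39 to 0.87, adjusted p = 0.000969).

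Pgf, placental growth factor (chromosome 12, 85166635 to 85177790), was the least abundant member, with between 25 and 39 reads in a library. It had 3.83 to 6.09 CPM in 4FM3 with a median of 5.2, against 3.38 to 4.83 CPM in PBS with a median of 3.90. The groups overlapped. The log2 fold change was 0.27 (SE 0.182, adjusted p = 0.252), with a 95% interval from -0.13 to 0.66, and its upper end lies above the 0.63 of Vegfb.

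Vegfd, a ligand of Flt4 and also made by fibroblasts (chromosome X, 164373378 to 164402650), had the largest fold change of the 10. It had 9.51, 13.4, 5.93, 11.6 and 12.1 CPM in 4FM3, against 16.5, 18.9, 21, 21 and 28.5 CPM in PBS. Every 4FM3 library was below every PBS library, with 4FM3 replicate 3 lowest and PBS replicate 5 highest. Its level was 2.01-fold lower in 4FM3, a log2 fold change of -1.0 with an SE of 0.198 and a 95% interval of -1.44 to -0.57 (adjusted p = 0.00199), and 4.76% of tested genes had a fold change as low or lower. These values rest on 37 to 95 reads a library in 4FM3 and 127 to 221 in PBS.

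Vegfc, the principal lymphangiogenic ligand (chromosome 8, 54077606 to 54187096), was lower by less. It had 9.82, 14.4, 10.7, 10.9 and 14 CPM in 4FM3, against 13, 16.6, 15.5, 19.4 and 13.9 CPM in PBS. The groups overlapped, since 4FM3 replicates 2 and 5 reached the level of PBS replicates 1 and 5. Its level was 1.31-fold lower, a log2 fold change of -0.38 with an SE of 0.141 (adjusted p = 0.0426), just inside the threshold. It no longer passed without 4FM3 replicate 1 (-0.32), 3 (-0.35) or 4 (-0.35) or without PBS replicate 2 (-0.35), 3 (-0.37) or 4 (-0.29), nor with DESeq2 (-0.37) or with no filter on low counts (-0.38).

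Kdr, the main signalling receptor for VEGF-A (chromosome 5, 75932827 to 75978458), was the receptor with the largest difference. It had 323, 355, 338, 337 and 272 CPM in 4FM3, against 249, 209, 208, 210 and 158 CPM in PBS. The groups lay apart, with 4FM3 replicate 5 lowest in its group and nearest to PBS replicate 1. Kdr was 1.57-fold higher (log2 fold change 0.65, SE 0.109, 95% interval 0.41 to 0.89, adjusted p = 0.000728). Vegfa, Vegfb, Vegfd and Kdr passed in all 19 alternative settings tried for each.

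Flt1, which encodes both the membrane receptor VEGFR1 and a secreted form (chromosome 5, 147561604 to 147726011), was higher by less than Kdr. It had 209, 217, 236, 217 and 255 CPM in 4FM3, against 195, 184, 183, 212 and 154 CPM in PBS. PBS replicate 4 overlapped the lowest 4FM3 library. The fold was 1.22 (log2 fold change 0.29, SE 0.0873, adjusted p = 0.0177). Membrane and secreted forms are not separated in these counts. Flt1 did not pass with library size alone as scaling (0.12, adjusted p = 0.244), under which the median of all genes stood at -0.205 and not at -0.029.

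Flt4, the receptor of VEGF-C and VEGF-D (chromosome 11, 49609263 to 49652739), was the only receptor of the 3 that was lower. It had 40.3, 62.9, 56.2, 52.4 and 64.7 CPM in 4FM3, against 63.9, 76.5, 65.7, 70.5 and 77.4 CPM in PBS. Of the 4FM3 libraries, replicate 5 overlapped the PBS range and replicate 1 was lowest. Its level was 1.28-fold lower, a log2 fold change of -0.35 with an SE of 0.113 (adjusted p = 0.0238). It did not pass without 4FM3 replicate 4 (-0.33), PBS replicate 2 (-0.32) or PBS replicate 5 (-0.31).

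Nrp1, the neuropilin of arterial and capillary endothelium, had 269 to 333 CPM in 4FM3 with a median of 311, against 247 to 290 CPM in PBS with a median of 269. The ranges overlapped and the log2 fold change of 0.17 (SE 0.0757, 95% interval 0.01 to 0.34) did not pass over all genes (adjusted p = 0.0825). It passed without 4FM3 replicate 5 (0.21) and with DESeq2 (0.19), and stood at -0.0036 with library size alone. Nrp2, the neuropilin of veins and lymphatics, had 120 to 147 CPM in 4FM3 with a median of 131, against 118 to 143 CPM in PBS with a median of 128. Its log2 fold change was 0.03 (SE 0.0695, adjusted p = 0.752), with a 95% interval from -0.12 to 0.18, which holds neither the 0.65 of Kdr nor the -1.0 of Vegfd. It stood at -0.15 with library size alone. In the annotation used, GENCODE M21, Nrp2 shares its span with the antisense gene Gm29083 and with Gm37121, Nrp1 shares its span with Mir1903, and whether the counting used the strand is not stated.

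**Figure D2:**
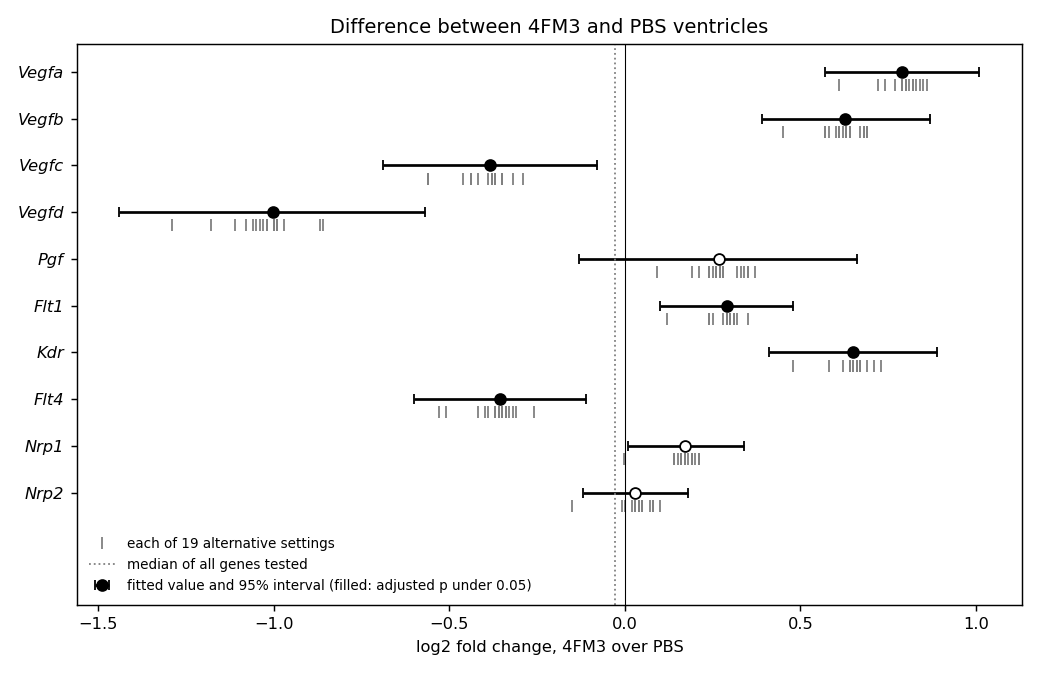
Log2 fold change of each gene, 4FM3 over PBS, with its 95% interval from the edgeR fit, and below each the values in 19 alternative settings as ticks. Vegfa at 0.79, Kdr at 0.65 and Vegfb at 0.63 stand to the right of 0 and Vegfd at -1.0 to the left in every setting, while the ticks of Nrp2 fall on both sides of 0.

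Some libraries stood apart. PBS replicates 2 and 3 carried RNA of lung epithelium, with summed levels of 10 lung markers of 1200 and 1150 CPM, against 3.25 to 5.15 CPM in the other PBS libraries and 0.614 to 26.3 CPM in 4FM3. Surfactant protein C (Sftpc) had 575 and 499 CPM in those 2 libraries, 11.9 CPM in 4FM3 replicate 2 and no read in the other 7. Without PBS replicates 2 and 3 the log2 fold changes were 0.85 for Vegfa, 0.57 for Vegfb, 0.67 for Kdr and -1.05 for Vegfd and all 4 passed (adjusted p 0.0049 for Vegfa, 0.0158 for Vegfb, 0.0104 for Kdr and 0.0124 for Vegfd). Flt1 (0.29, adjusted p = 0.0892), Flt4 (-0.34, adjusted p = 0.0886) and Vegfc (-0.35, adjusted p = 0.16) did not pass with those fewer libraries.

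Levels of different genes were compared only per length, as CPM divided by kilobases of exon. With the union of exons as the length, the ligand genes Vegfb and Vegfa had the highest levels of the 10 in both groups. Vegfb had 104 ± 12.4 in 4FM3 and 67.3 ± 10.4 in PBS (SD, n = 5 each). Vegfa had 84.5 ± 7.93 in 4FM3 and 48.9 ± 6.56 in PBS. Next in 4FM3 came Kdr (36.0 ± 3.49), Nrp1 (30.9 ± 2.70) and Flt1 (16.8 ± 1.37), and in PBS Nrp1 (27.4 ± 1.78), Kdr (22.9 ± 3.59) and Flt1 (13.7 ± 1.57).

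Kdr stood above Nrp1 in all 5 4FM3 libraries and below it in all 5 PBS libraries, though the ranges of the 2 genes overlapped in each group. With the longest transcript in place of the union of exons, Nrp1 stood above Kdr in both groups and above Vegfa in PBS (Nrp1 73.7 and Vegfa 60.7), and Flt4, Vegfd and Vegfc followed each other in that order in both groups. Vegfb stayed first and Pgf last. Nrp2 followed at 11.2 ± 0.855 in 4FM3 and 10.9 ± 0.738 in PBS (SD, n = 5 each). Flt4, Vegfc and Vegfd had means between 4.37 and 6.72 in 4FM3 and between 6.40 and 8.80 in PBS, and neighbours among them overlapped. Pgf was last in both groups, at 1.71 ± 0.313 in 4FM3 and 1.41 ± 0.215 in PBS.

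Of the summed level per length of the 5 ligands, over the union of exons, Vegfa took 42.4% ± 3.35 in 4FM3 and 36.8% ± 2.93 in PBS (SD, n = 5 each). Vegfd took 2.22% ± 0.713 in 4FM3 and 6.80% ± 2.23 in PBS, and Vegfc 2.48% ± 0.588 in 4FM3 and 4.85% ± 0.739 in PBS. Among the 3 receptors Kdr took 60.4% ± 4.30 in 4FM3 and 50.4% ± 3.56 in PBS, Flt1 28.3% ± 2.91 in 4FM3 and 30.3% ± 1.56 in PBS, and Flt4 11.3% ± 1.88 in 4FM3 and 19.3% ± 3.38 in PBS. The shares of Vegfd, Vegfc and Flt4 lay wholly lower in 4FM3, while those of Vegfa, Kdr and Flt1 overlapped.

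**Figure D3:**
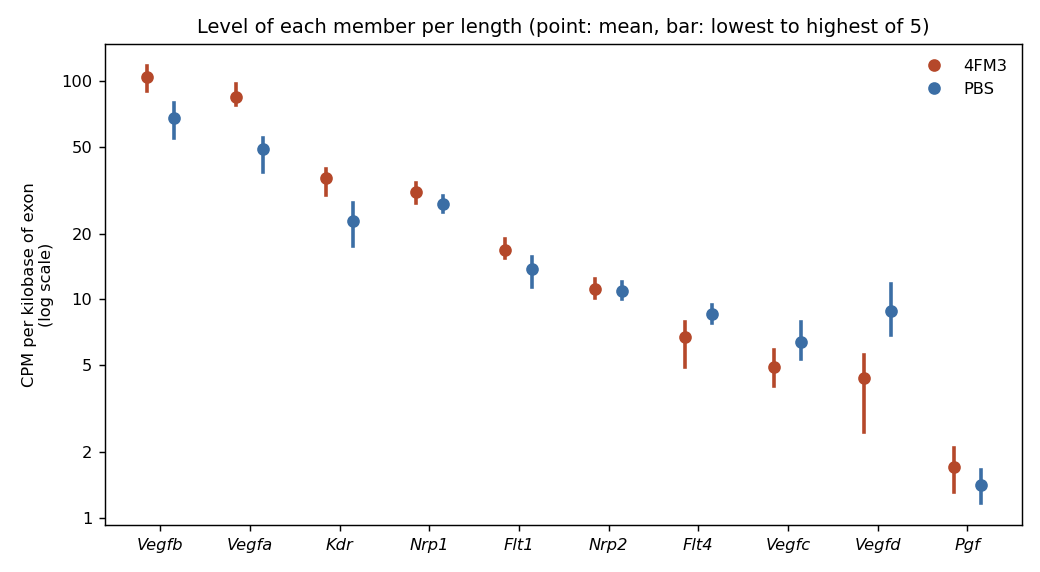
Level per length of the 10 genes (CPM per kilobase of exon, log scale), 4FM3 left of PBS for each gene, point for the mean and bar for the lowest to highest of 5 libraries. With the union of exons as the length Vegfb and Vegfa lead in both groups (with the longest transcript Nrp1 stands above Vegfa in PBS), Pgf is lowest, and Vegfd at 4.37 in 4FM3 and 8.80 in PBS has separate bars.

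Ratios within a library do not depend on how libraries are scaled, and 9 were tested by exact permutation (two-sided, 252 assignments of libraries to groups, smallest possible p 0.00794). Flt4 relative to Kdr was lower in 4FM3, with a read ratio of 0.125 to 0.238 in 4FM3 and 0.257 to 0.490 in PBS. The log2 difference was -1.03 (exact p = 0.00794, adjusted over the 9 ratios 0.0357), and every 4FM3 library lay below every PBS library. Vegfd relative to Vegfc, the ligands of Flt4, was also lower, at 0.556 to 1.06 in 4FM3 and 1.08 to 2.04 in PBS. That log2 difference was -0.65 (exact p = 0.00794, adjusted 0.0357). Both missed the threshold (adjusted 0.0714) without 4FM3 replicate 2 or 3 or any of PBS replicates 2 to 5. Differences then ran from -1.06 to -0.90 for Flt4 over Kdr and from -0.72 to -0.49 for Vegfd over Vegfc. The groups still lay wholly apart in each of these cases, since leaving out a library cannot bring them together. Fewer libraries leave fewer assignments, so the exact p has fewer possible values.

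Kdr and Flt1 were also set against markers of endothelial cells. Relative to the mean of 23 endothelial markers, Kdr was 0.56 higher on the log2 scale in 4FM3 (exact p = 0.0159, adjusted 0.0357), with 4FM3 replicate 5 below PBS replicate 1. Flt1 relative to the same markers was 0.20 higher (exact p = 0.0159, adjusted 0.0357), and 0.12 higher without passing when Pecam1 and Cdh5 alone were the markers. Nrp1 relative to them differed by 0.07 (exact p = 0.405). With any of the libraries left out, Kdr passed in 2 of 10 cases and Flt1 in 2 of 10, with differences of 0.50 to 0.65 for Kdr and 0.16 to 0.23 for Flt1.

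The ratio of Flt1 to Kdr fell short of the threshold, with a log2 difference of -0.37 (exact p = 0.0317, adjusted 0.0571) and a read ratio of 0.613 to 0.936 in 4FM3 and 0.782 to 1.01 in PBS. It passed without 4FM3 replicate 5 (-0.47) and without PBS replicate 1 (-0.42). Pgf relative to Vegfa differed by -0.53 (exact p = 0.0476, adjusted 0.0714) and passed without PBS replicate 1 (-0.64). Vegfb relative to Vegfa (-0.16, exact p = 0.206) and Nrp2 relative to Nrp1 (-0.14, exact p = 0.230) did not pass.

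**Figure D4:**
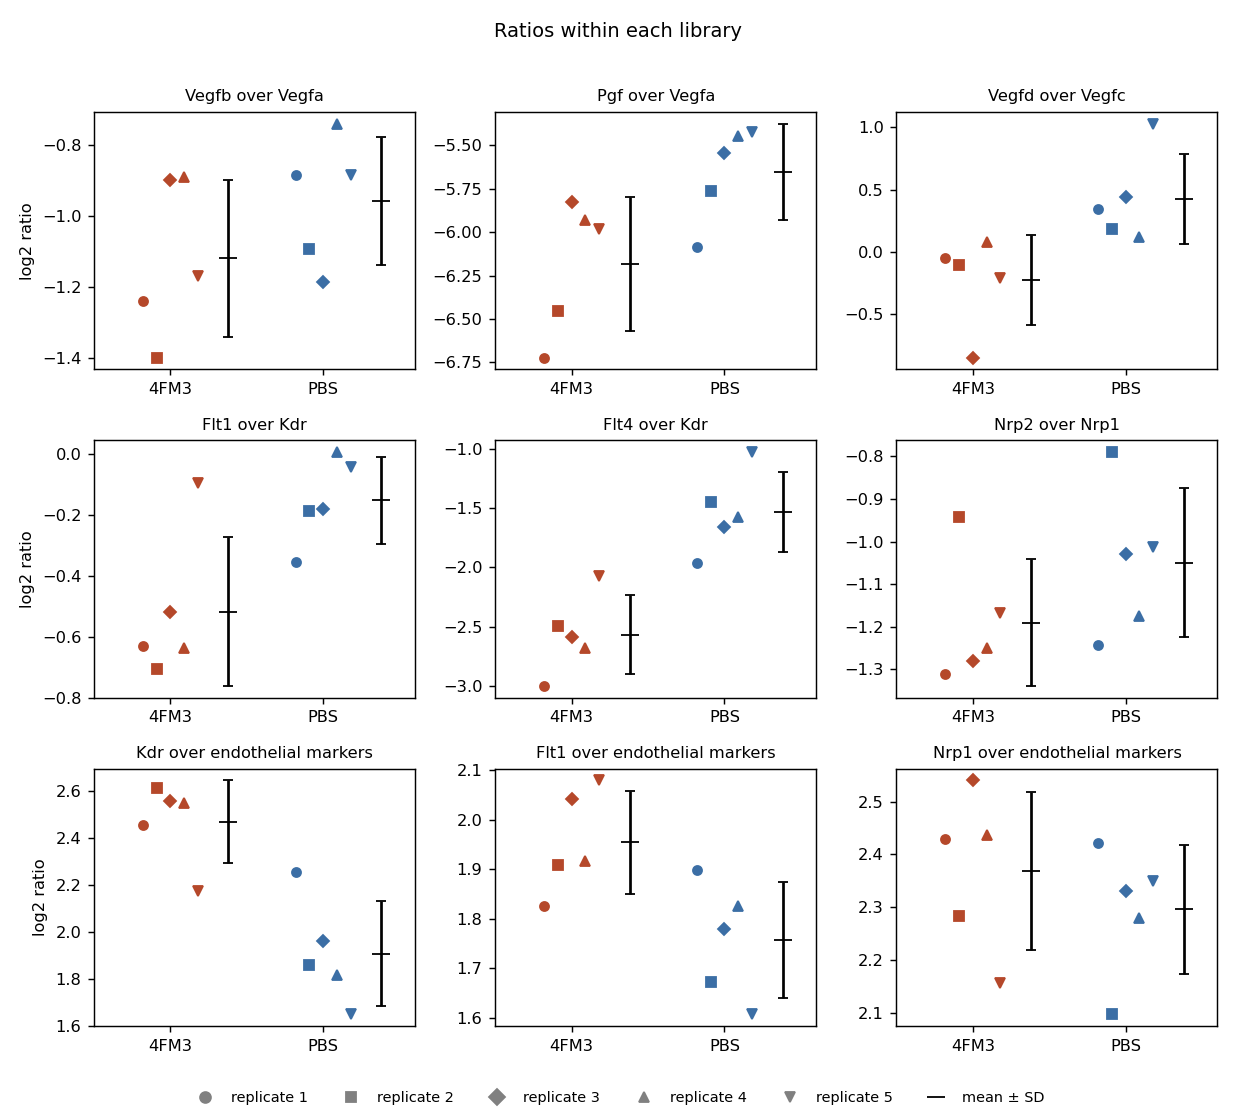
Log2 ratios within each of the 10 libraries (y axes differ between panels and do not start at 0), 4FM3 left of PBS, 1 symbol per replicate number, with mean and SD. Flt4 over Kdr and Vegfd over Vegfc are lower in every 4FM3 library than in any PBS library, and the other 7 ratios overlap.

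Cell type markers moved between the groups too, and in whole tissue fewer cells of a type and less RNA per cell cannot be told apart. Cardiomyocyte markers were higher in 10 of 11 cases, with summed levels of 117000 to 143000 CPM in 4FM3 and 76200 to 103000 CPM in PBS. Relative to the mean of these 11 markers, Vegfa differed by 0.06 on the log2 scale and Vegfb by -0.10, and the ranges overlapped, with -4.23 to -3.75 in 4FM3 and -4.29 to -3.90 in PBS for Vegfa. Vegfb followed these markers closely, with an SD of the log2 ratio of 0.0514 in 4FM3 and 0.0685 in PBS. PBS replicate 5 had the lowest cardiomyocyte sum, the lowest Vegfa, Vegfb, Flt1 and Kdr, and the highest Vegfd and Flt4. The part of muscle RNA in the result for Vegfa and Vegfb was not tested.

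Fibroblast markers were lower in 9 of 9 cases, with summed levels of 3980 to 6870 CPM in 4FM3 and 9900 to 12300 CPM in PBS. Relative to these 9 markers Vegfd differed by -0.10 on the log2 scale, with -5.26 to -4.45 in 4FM3 and -4.96 to -4.21 in PBS. Vegfc was 0.55 higher relative to them and 0.48 lower relative to the endothelial markers, where it stood at -2.58 to -2.0 in 4FM3 and -2.0 to -1.62 in PBS. Their part in the results for Vegfd and Vegfc was not tested.

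Endothelial markers had 6 higher and 2 lower of 23, with a median log2 fold change of 0.14 and summed levels of 1970 to 2160 CPM in 4FM3 and 1860 to 2190 CPM in PBS, but with library size alone 2 were higher and 5 lower with a median of -0.03. The guidance receptor gene Robo4 (0.58) and the transcription factor gene Sox18 (0.50) were higher, and the glycoprotein genes Clec14a (-0.51) and Cd34 (-0.31) were lower. Lymphatic endothelial markers had 1 higher and 2 lower of 6 tested, with a median of -0.34 and sums of 275 to 331 CPM in 4FM3 and 277 to 302 CPM in PBS. The count lower was 1 without 4FM3 replicate 4 or PBS replicate 2 and 4 without 4FM3 replicate 3, and 4 with library size alone. Prox1, the lymphatic master regulator that heart muscle also expresses, was higher (0.50, adjusted p = 0.00228), and Reln (-0.84) and Pdpn (-0.60) were lower. Prox1 was the largest part of the lymphatic sums, with means of 197.2 CPM in 4FM3 and 139.1 CPM in PBS. The chemokine gene Ccl21a stood at -0.38 without passing (adjusted p = 0.0539), and Lyve1, chosen after its value was seen, at 0.02 (adjusted p = 0.956). Relative to these 6 markers Flt4 differed by -0.08, and relative to the endothelial markers by -0.47, from -0.55 to 0.12 in 4FM3 and from 0.24 to 0.62 in PBS. What part these cells had in the result for Flt4 was not tested.

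Genes whose levels varied most like a member were sought among 10523 others, by Pearson correlation over the 10 libraries after group means were taken off. These values describe the best of many, in libraries that share their depth and their tissue makeup. Vegfb varied most like Mrpl15 (r = 0.99, rho = 0.98), Coq9 (r = 0.98) and Atp5g3 (r = 0.98), genes of the mitochondrial ribosome, coenzyme Q synthesis and ATP synthase. Without the 2 libraries farthest from the median these stood at 0.99, 0.97 and 0.97. Flt4 varied most like Plvap (r = 0.98, rho = 0.99), which encodes a protein of the diaphragms of endothelial pores, and the value was 0.95 without the 2 farthest libraries. For Vegfa the nearest gene was Fam179a (r = 0.96, 0.90 without 2), for Kdr Csnk1g2 (r = 0.95, rho = 0.72, 0.71 without 2) and for Vegfd Gabbr1 (r = 0.94, 0.86 without 2).

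The other genes of the pathway were read from 6 lists with 100 tested genes, of which 19 were higher and 34 lower, 53% in all beside the 43.0% of all genes tested. Among 13 regulators of Vegfa transcription 6 were higher and 2 lower, with a median log2 fold change of 0.14. The list does not separate activators from inhibitors, so these counts give no direction of their action on Vegfa. Egln3, an oxygen-sensing hydroxylase gene that HIF itself induces, had 143.7 ± 15.4 CPM in 4FM3 and 69.7 ± 10.9 CPM in PBS (SD, n = 5 each; log2 fold change 1.04, adjusted p = 0.000211). Its relative Egln1 (0.77), the nuclear receptor gene Esrra (0.67) and its coactivator gene Ppargc1a (0.74), a pair known to drive Vegfa in muscle, were higher as well. For Ppargc1a the groups overlapped (87.9 CPM in 4FM3 replicate 2, 91.5 CPM in PBS replicate 1). Cardiomyocyte markers had a median of 0.85. The part of muscle RNA or of these genes in the result for Vegfa was not tested. Hif1a (-0.36, adjusted p = 0.002) and Sp1 (-0.27, adjusted p = 0.00252) were lower, and Hif1an (0.39, adjusted p = 0.00461) was higher. Epas1 did not pass (0.14, adjusted p = 0.246). Hif1a, Sp1, Hif1an and Epas1 were chosen after their values were seen. With library size alone 6 were higher and 4 lower, and the median was -0.04.

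Genes for the processing and matrix binding of VEGF had 7 lower and none higher of 13, with a median of -0.43. Ccbe1, a cofactor needed to activate VEGF-C, was lower (-0.83, adjusted p = 0.00268), as were the protease gene Adamts2 (-1.05), the antiangiogenic thrombospondin gene Thbs2 (-1.06) and Sparc (-0.94), whose product binds VEGF. The protease genes Adamts3 (-0.14, adjusted p = 0.596) and Adamts14 (-0.43, adjusted p = 0.244), both chosen after their values were seen, did not pass. Without PBS replicates 2 and 3, 4 genes of this list were lower. Fibroblast markers were lower as well, 9 of 9 with a median of -0.78, and their part in this list was not tested.

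Class 3 semaphorins, which compete with VEGF for neuropilins, and their plexin receptors had 5 lower and none higher of 11, with a median of -0.19, which stood at -0.35 without 4FM3 replicate 5. Sema3a (-1.02), Sema3d (-1.06), Plxna3 (-0.79) and Plxna4 (-0.67) were lower, while the neuropilins themselves did not pass. Signalling genes downstream of the receptors were mixed, with 8 higher and 8 lower of 30 and a median of 0.05. The kinase gene Src (-0.81) and the scaffold gene Iqgap1 (-0.58) were lower and the kinase gene Mapkapk2 (0.57) was higher. Nos3, the endothelial nitric oxide synthase gene chosen after its value was seen, had 34.9 ± 1.58 CPM in 4FM3 and 27.7 ± 3.94 CPM in PBS (SD, n = 5 each; log2 fold change 0.33, adjusted p = 0.0151). With library size alone 3 signalling genes were higher and 12 lower, with a median of -0.13.

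Partners and phosphatases of the receptors had 4 higher and 4 lower of 15, with a median of -0.13. The heparan sulfate proteoglycan gene Gpc1 (0.68) and the phosphatase gene Ptpn11 (0.33) were higher, and the integrin gene Itgav (-0.60) and the endocytic adaptor gene Dab2 (-0.40) were lower. With library size alone 1 was higher and 9 lower. Leaving out 1 library gave 2 or 3 higher and 2 to 6 lower, with 2 higher without 4FM3 replicate 1, 3 or 4 or PBS replicate 2, 3 or 5, and 2 lower without 4FM3 replicate 1 or 3 or PBS replicate 2. Genes known to be induced by VEGF in endothelium had 1 higher and 8 lower of 18, with a median of -0.55. Apln, a peptide of sprouting vessel tips, was higher (0.87, adjusted p = 0.00485), and the guidance receptor gene Unc5b (-0.75), the basement membrane gene Nid2 (-0.41) and Ptgs2 (-1.18) were lower. Without PBS replicates 2 and 3, 3 genes of this list were lower and 1 higher, with a median of -0.47, and without 4FM3 replicate 1 or 2 or PBS replicate 2, 2 genes were higher. Macrophage markers were lower in 6 of 9 cases, with sums of 733 to 886 CPM in 4FM3 and 806 to 1750 CPM in PBS, and their part was not tested. The count of macrophage markers lower was 2 without 4FM3 replicate 3, 3 without 4FM3 replicate 1 or 4 or PBS replicate 2, and 9 without PBS replicate 4.

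**Figure D5:**
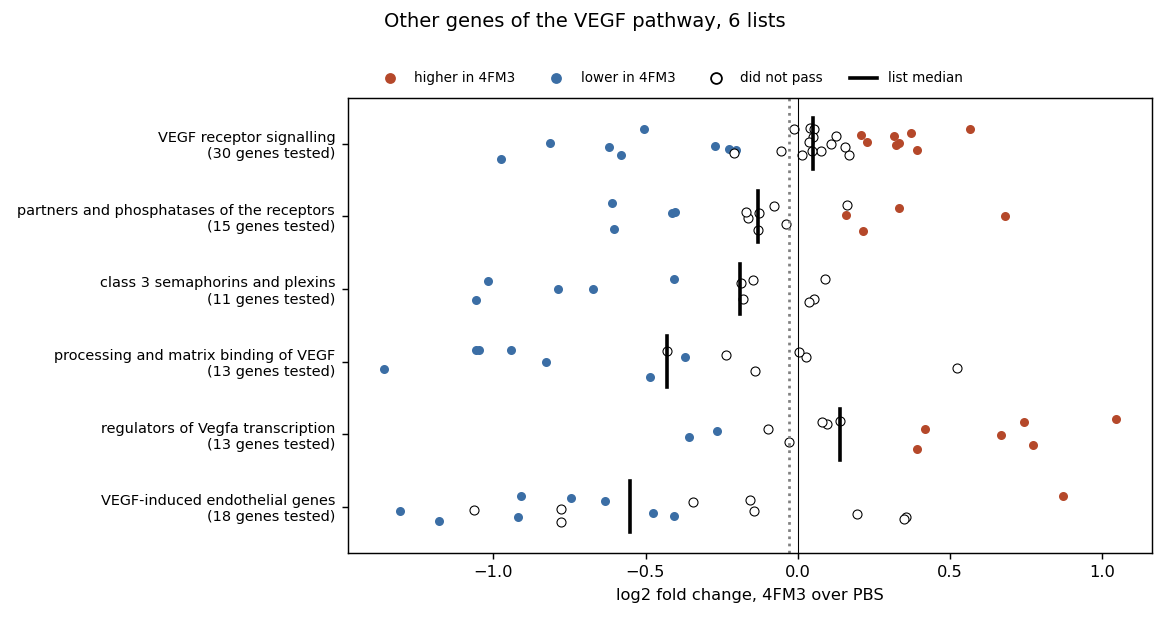
Log2 fold change (4FM3 over PBS) of 100 tested genes in 6 lists of the VEGF pathway, filled where the adjusted p was under 0.05, with a black bar at each list's median and a dotted line at the median of all genes tested. Regulators of Vegfa transcription have 6 genes higher, and the lists of VEGF processing and of semaphorins and plexins have none higher.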

How the data were processed

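Per the labels' protocols, ribosomal RNA was removed from total RNA before directional library synthesis. The genome build was mm10, per the submitters' processing notes. The sources used here give no aligner, counter or annotation. The deposited count columns hold whole-number read counts per gene. The deposited normalized values are a signal. Its median ratio to the counts, over genes with many reads, ran from 0.9311 to 1.114 across libraries. Whether 1 factor holds for every gene of a library was not checked. The deposited transformed values equal log2 of that signal plus 1. Only counts were tested. Total counts per library ran from 6634159 to 7319968 in 4FM3 and from 7099249 to 7711177 in PBS. In 26 rows a calendar date stands for the name, with 0.131% to 0.161% of a library's counts.

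Counts were fitted with edgeR 4.0.16 in R 4.3.3 (filterByExpr, TMM scaling, robust quasi-likelihood test, two-sided, 4FM3 against PBS with no covariate), with Benjamini-Hochberg adjustment over 12906 genes and a threshold of 0.05. CPM uses TMM-scaled library sizes. Ratios used log2 of the count plus 0.5. Ratios to endothelial markers used the member's log2 CPM less the mean log2 CPM of the markers. Positions and lengths come from GENCODE M21. The fit was tested on simulated data in which every gene had the same spread. It called 55.4% of genes changed 1.5-fold and 98.5% of genes changed 2-fold, so smaller changes can be missed. Alternatives were limma-voom (limma 3.58.1), DESeq2 1.42.0, other scalings and filters, the replicate number as a block and left-out libraries. No pair of libraries of a group agreed within sampling noise. Members, lists, ratios and tests were chosen with earlier results of these data known. From each list the 4 genes with the smallest p are named, except 1 that is not reported here, and others are said to be chosen after their values were seen. Motifs and the levels relative to cardiomyocyte, fibroblast and lymphatic markers were also chosen after the data were seen.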

Additional observations from a re-analysis of the deposited data

How the results depend on the processing

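Vegfa, Vegfb, Vegfd and Kdr kept their direction and passed in all 19 alternatives, with log2 fold changes of 0.61 to 0.86, 0.45 to 0.69, -1.29 to -0.86 and 0.48 to 0.73, and Pgf passed in none of its 19. With library size alone, 1540 genes were higher and 4967 lower in 4FM3, against 2700 and 2846. Of the pathway genes 11 were higher and 50 lower with that scaling, against 19 and 34. There Flt1 stood at 0.12, Nrp1 at -0.0036 and Nrp2 at -0.15. Vegfc did not pass with DESeq2 (-0.37) or with no filter (-0.38), while Nrp1 passed with DESeq2 (0.19). Without PBS replicates 2 and 3, 1668 genes were lower, pathway genes numbered 12 higher and 21 lower, and Vegfc (-0.35), Flt1 (0.29) and Flt4 (-0.34) did not pass. Without those and 4FM3 replicates 2 and 5, with 3 libraries a group, Flt1 (0.24) did not pass, while Vegfc (-0.56) and Flt4 (-0.51) did. The causes were not tested.

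Leaving out each library in turn gave Vegfc -0.46 to -0.29, Flt4 -0.42 to -0.26, Nrp1 0.14 to 0.21 and Nrp2 -0.0077 to 0.08. For ratios it gave -0.72 to -0.49 for Vegfd over Vegfc, -1.16 to -0.90 for Flt4 over Kdr, 0.50 to 0.65 for Kdr over endothelial markers, 0.16 to 0.23 for Flt1 over them, -0.47 to -0.32 for Flt1 over Kdr and -0.64 to -0.40 for Pgf over Vegfa. With 4 libraries against 5 there are fewer assignments, but the smallest possible exact p is the same. Without PBS replicates 2 and 3, the first 4 of these ratios stood at -0.72, -1.04, 0.56 and 0.18, none of them past the threshold. There the smallest possible exact p is larger than with all 10 libraries. The groups still lay wholly apart for Vegfd over Vegfc and for Flt4 over Kdr. Flt1 over endothelial markers did not pass with log2 of the count plus 2 (0.20) or with Pecam1 and Cdh5 alone (0.12), where Nrp1 stood at -0.00034.

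In the labels, libraries of 4FM3 and PBS with the same number share only the number. The correlations of their deviations ran from -0.05 to 0.12, and no 4FM3 library correlated best with the PBS library of its own number. These correlations cannot exclude a shared handling of libraries. With the replicate number as a block 2740 genes were higher and 2852 lower, and Nrp1 passed (0.17). Of the 40 levels per length under another length or scaling, 16 moved by more than their SD. At this depth Pgf, with 25 to 39 reads, allows only a wide interval.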

Other observations

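Markers of pericytes and smooth muscle, the cells that wrap the vessels, moved both ways. Of 8 tested, 3 were higher and 5 lower in 4FM3, with a median log2 fold change of -0.44. The pericyte genes Rgs5 (659.3 ± 30.9 CPM in 4FM3 and 486.3 ± 44.5 CPM in PBS, SD, n = 5 each; log2 fold change 0.44, adjusted p = 0.000967) and Abcc9 (0.76), a channel subunit that heart muscle also expresses, were higher. The receptor gene Pdgfrb (-0.48) and the contractile gene Acta2 (-0.76) were lower. The macrophage genes Csf1r (-0.48), Mrc1 (-0.30), Cd68 (-0.61) and Lyz2 (-0.81) were lower, and without PBS replicates 2 and 3 the list had 2 genes lower, and 3 with the replicate block. The fibroblast genes Dpt (-0.75), Col3a1 (-1.18), Lum (-0.78) and Dcn (-0.69) were lower, and the cardiomyocyte genes Pln (0.89), Tnni3 (1.07), Ryr2 (0.85) and Myl2 (1.0) were higher. Of the lung markers only Napsa was tested (-2.82, adjusted p = 0.00352). No value of a member or ratio lay far from the rest of its group by Dixon's test, in 38 groups of 5 values examined.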
